A study of Mus musculus with 28 samples.

Results

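The livers of obese mice were compared after 40 d of a daily combination of aspirin and trimetazidine or of solvent alone. The comparison takes 12 of the 28 samples of the series, 6 treated and 6 vehicle livers chosen by their labels. It covers the 10995 of 54163 listed genes that reached 1 FPKM in at least 6 of the 12 libraries. FPKM is fragments per kilobase of exon, scaled by a size factor for each library. Both groups were male Lepob/Lepob C57BL/6J mice, in which both copies of the leptin gene carry the ob mutation and no functional leptin is made in any tissue. From 4 weeks of age, 30 such mice ate the AMLN diet for 20 weeks, with 40% of calories from fat (18.5% from trans-fat), 20% from fructose and 2% cholesterol by weight, and they stayed on it during treatment. Treated mice were injected into the abdomen each day with 3.0 mg/kg of acetylsalicylate plus 5.0 mg/kg of trimetazidine, and vehicle mice with the same volume of solvent. Samples from mice given either drug alone were not analysed here, so the contributions of aspirin and trimetazidine cannot be told apart. Each library is named by the number in its label and taken as 1 mouse. The treated mice were 4_5, 5_1, 5_2, 5_3, 5_4 and 5_5, and all vehicle numbers begin with 2, 3 or 6. The meaning of this leading number is not given, and since the groups never have one in common, it cannot be told apart from the treatment.

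Leptin-deficient mice on this diet develop fat-laden, inflamed livers that serve as a model of steatohepatitis, and the absence of leptin limits the model, because appetite and insulin signalling are also disturbed. Hepatocytes make most plasma proteins. During inflammation, interleukin-6 acting through STAT3, together with C/EBP and NF-kappaB factors, makes them secrete the acute phase proteins, among them serum amyloid A, orosomucoid and haptoglobin. Hepatocytes also turn sugar into fatty acids (lipogenesis), join these to glycerol as triglyceride, and keep the triglyceride in droplets coated by perilipins and CIDE proteins. Aspirin acetylates the cyclooxygenases that begin prostaglandin synthesis, and trimetazidine inhibits the thiolase that ends each round of mitochondrial fatty acid oxidation.

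The 12 libraries held 16.8 to 18.9 M reads on genes. Hepatocyte markers were all detected, with albumin (Alb) at 19203 to 24661 FPKM in vehicle and 11998 to 26203 FPKM in treated livers. Skeletal muscle markers summed to at most 5.6 FPKM in any liver, and the adipocyte markers Adipoq, Lep, Plin1 and Retn were each listed at 0 in at least 1 liver. Mitochondrial genes took 4.37% to 6.54% of reads in vehicle (median 4.78%) and 3.73% to 4.41% in treated livers (median 4.15%). The treated livers varied more than the vehicle livers: the median within-group SD over tested genes was 0.147 for vehicle and 0.183 for treated on the log2 scale, and 65.7% of genes had the larger SD in the treated group. Treated mice 5_2, 4_5 and 5_5 stood apart in different gene groups, as given below with each group. In whole liver, a change in the number of cells of a type and a change in RNA per cell cannot be told apart.

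Over all genes, 28 of 10995 (0.255%) passed the limma test with an adjusted p under 0.05. Of these, 11 (0.1% of genes tested) were higher and 17 (0.155%) lower in treated livers. Differences are of log2(FPKM + 1) and therefore come out smaller than the true change where a gene is low, and "rose" and "fell" are used below only for these 28 genes. The leading genes that rose were the neighbouring secreted ribonucleases Ang and Rnase4, and the leading genes that fell with a name were Mogat1, Osbpl3 and Fndc10. Gene values are given throughout as the lowest, median and highest FPKM of the 6 livers of a group. Another view is whether the 6 treated values lie wholly outside the 6 vehicle values. This held for 127 genes (1.16%), of which 47 (0.427%) lay above and 80 (0.728%) below, and they included 26 of the 28 called genes. At an unadjusted p under 0.05 there were 1455 genes (13.2%). Of all 10995 tested genes, 5381 (48.9%) had higher and 5610 lower values in treated livers. These shares over all genes stand beside the list counts below. The lists were drawn up with earlier results known, so their counts support nothing by themselves. The calls sat close to the threshold: the smallest adjusted p was 0.0173, no gene was called in all 12 fits that each left out 1 library, 8 of the 28 were called in at least 6 of them, and 0 genes were called without vehicle 2_3 (1334 at an unadjusted p under 0.05) or without treated 5_3 (1161 at that p). Leaving out treated 5_2 instead gave 83 calls, 48 higher and 35 lower. In the plot of effect size against p, the called genes lie above the cloud on both sides, and Saa1, Saa2 and Orm2, with fold changes as large as those of called genes, lie below them.

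**Figure D1:**
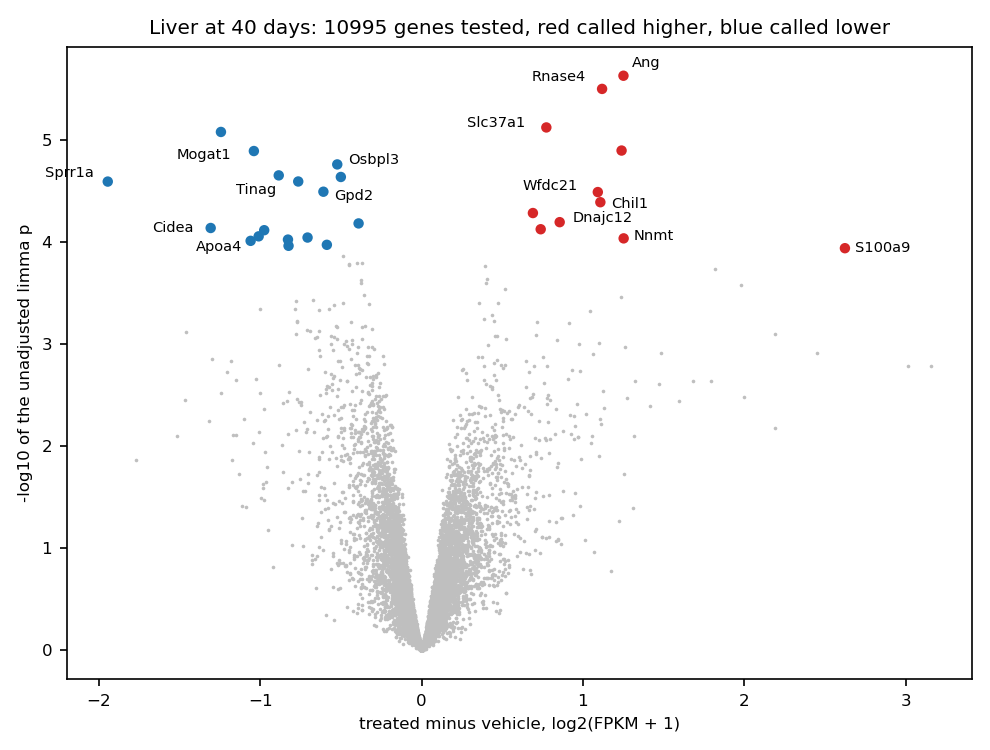
Each of the 10995 tested genes is plotted by its treated minus vehicle difference, log2(FPKM + 1), on the x axis and the −log10 of its unadjusted limma p on the y axis. Red points are the 11 genes called higher and blue points the 17 called lower at an adjusted p under 0.05, with 15 of them named. Among the called genes, S100a9 lies farthest to the right at 2.62 and Sprr1a farthest to the left at −1.95.

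The sequences just before the transcription starts are shown for the genes whose values the results turn on, because the first 2 called genes share a start and because the acute phase genes had their high and low values in the same mice. Windows of 250 bases before the start were taken from RefSeq's GRCm38.p6 annotation, which has them for 18 of 27 called genes looked up and for part of the list members. Searched on both strands were the C/EBP motif TTGCNNAA and the STAT motif TTCNNNGAA, which occur in 9.6% and 7.0% of all 32851 windows. The first 2 windows below are those of Ang and Rnase4, which RefSeq gives 1 common start and Rnase4 a second start farther downstream. The other windows are those of S100a9, of the serum amyloid genes Saa1 and Saa2, of the fibrinogen gene Fgb and of Socs3. Capitals mark motif matches.
Ang and Rnase4, common start (chr14:51090827-51091076, plus strand): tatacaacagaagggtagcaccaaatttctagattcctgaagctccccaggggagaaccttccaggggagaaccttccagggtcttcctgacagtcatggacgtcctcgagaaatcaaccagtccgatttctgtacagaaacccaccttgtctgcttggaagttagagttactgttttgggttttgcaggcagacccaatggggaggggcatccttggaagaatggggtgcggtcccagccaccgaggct
Rnase4, second start (chr14:51095750-51095999, plus strand): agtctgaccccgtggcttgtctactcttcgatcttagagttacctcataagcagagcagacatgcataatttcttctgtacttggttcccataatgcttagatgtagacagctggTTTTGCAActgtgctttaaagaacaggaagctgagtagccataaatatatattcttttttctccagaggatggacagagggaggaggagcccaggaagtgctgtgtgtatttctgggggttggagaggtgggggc
S100a9 (chr3:90695722-90695971, minus strand): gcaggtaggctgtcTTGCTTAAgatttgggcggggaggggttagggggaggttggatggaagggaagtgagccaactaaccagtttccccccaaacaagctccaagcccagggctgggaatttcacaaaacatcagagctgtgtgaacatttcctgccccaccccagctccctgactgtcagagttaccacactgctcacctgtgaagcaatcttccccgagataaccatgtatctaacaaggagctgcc
Saa1 (chr7:46742981-46743230, minus strand): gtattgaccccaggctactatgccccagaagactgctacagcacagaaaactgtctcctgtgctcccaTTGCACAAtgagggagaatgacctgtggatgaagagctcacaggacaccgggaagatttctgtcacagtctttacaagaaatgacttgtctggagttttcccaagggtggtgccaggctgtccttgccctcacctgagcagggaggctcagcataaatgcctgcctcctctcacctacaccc
Saa2 (chr7:46751583-46751832, plus strand): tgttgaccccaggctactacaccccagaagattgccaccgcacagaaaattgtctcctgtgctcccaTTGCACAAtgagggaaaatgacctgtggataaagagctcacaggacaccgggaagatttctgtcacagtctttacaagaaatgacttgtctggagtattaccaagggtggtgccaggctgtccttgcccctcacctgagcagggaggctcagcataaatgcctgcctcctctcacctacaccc
Fgb (chr3:83049864-83050113, minus strand): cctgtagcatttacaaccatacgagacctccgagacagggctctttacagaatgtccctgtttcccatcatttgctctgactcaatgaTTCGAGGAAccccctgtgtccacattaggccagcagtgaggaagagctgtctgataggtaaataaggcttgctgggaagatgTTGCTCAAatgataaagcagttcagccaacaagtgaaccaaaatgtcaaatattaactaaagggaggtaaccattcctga
Socs3 (chr11:117969367-117969616, minus strand): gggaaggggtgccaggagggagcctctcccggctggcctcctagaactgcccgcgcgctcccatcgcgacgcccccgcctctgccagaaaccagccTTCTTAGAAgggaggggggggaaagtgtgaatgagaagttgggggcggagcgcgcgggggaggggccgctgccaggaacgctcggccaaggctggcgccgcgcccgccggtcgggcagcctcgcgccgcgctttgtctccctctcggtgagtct

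The common window of Ang and Rnase4 held neither motif, and the second Rnase4 window held a C/EBP match that begins 135 bases before the start. Saa1 and Saa2 held the same 8 bases, TTGCACAA, 182 and 183 bases before their starts. The Fgb window held a STAT match 162 and a C/EBP match 80 bases before the start, and the Socs3 window a STAT match 154 bases before it. Of windows not shown, those of S100a8, Fgg and Stat3 held neither motif. The window of Hamp, whose values went in the other direction, held a STAT match. Among the positive acute phase genes, 12 of 21 with a window held a C/EBP match and 7 of 21 a STAT match. The shares over all windows were 9.6% and 7.0%. Lists are counted by gene, with a match in any of its windows, and the shares by single window, so the units differ. Of the genes called higher, 3 of 7 held a C/EBP match and 0 of 7 a STAT match. For the genes called lower these counts were 2 of 11 and 1 of 11. C/EBP matches were also frequent in other lists: 6 of 11 negative acute phase genes, 4 of 8 hepatocyte markers, 7 of 14 neutrophil markers and 7 of 19 coagulation genes held one. Of the 20 lipogenic genes with a window, 4 held the E-box CACGTG (6.0% of all windows), 2 a C/EBP match and 1 the sterol element TCACNCCAC (1.1% of all windows). A match shows that these letters are present and nothing about whether a factor was bound there.

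Small secreted proteins were the group with the most called genes among those that rose. This list was drawn up with earlier results of these data known, so its counts and median support nothing by themselves. The list held 12 ribonucleases, chitinase-like proteins and whey acidic proteins; 8 were tested, all 8 had higher values in treated livers with a median difference of 1.10 against −0.0033 over all genes tested, and 4 were called. Ang encodes angiogenin, a ribonuclease secreted by hepatocytes. Its lowest, median and highest values were 52.9, 58.7 and 70.5 FPKM in vehicle and 84.4, 149 and 189 FPKM in treated livers. All 6 treated livers lay above all 6 vehicle livers, with 5_2 nearest to the vehicle range, and the log2 fold change was 1.25 (SE 0.16, limma adjusted p = 0.0173). Rnase4, a ribonuclease of the same locus, had 278, 315 and 425 FPKM in vehicle and 478, 769 and 812 FPKM in treated livers. Again 5_2 was the lowest of the treated mice and the other 5 lay between 734 and 812 FPKM; the log2 fold change was 1.12 (SE 0.15, limma adjusted p = 0.0173). Exons of Ang and Rnase4 overlap on the same strand over 18.2% of Ang and 13.4% of Rnase4, so how the authors' counting divided these reads is uncertain. Without 1 library, their adjusted p ranged from 5.14e-05 to 0.0644 and from 0.000651 to 0.0644, and both calls were lost without vehicle 2_3, vehicle 3_2 or treated 5_3.

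Wfdc21, a secreted protein of the whey acidic family, had 499, 566 and 717 FPKM in vehicle and 888, 1237 and 1889.9 FPKM in treated livers, and rose by 1.09 (SE 0.18, limma adjusted p = 0.0273) on the log2 scale. The groups did not overlap. Chil1, a chitinase-like lectin secreted in inflamed tissue, had 1.88, 2.4 and 2.55 FPKM in vehicle and 3.7, 5.77 and 10.1 FPKM in treated livers and rose by 1.11 (SE 0.18, limma adjusted p = 0.0318), with no overlap and the highest value in 4_5. Chil3, the chitinase-like protein of myeloid cells, is in the same list and had a difference of 1.11 with 5 of 6 treated livers above the vehicle range; it was not called (limma adjusted p = 0.195).

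**Figure D2:**
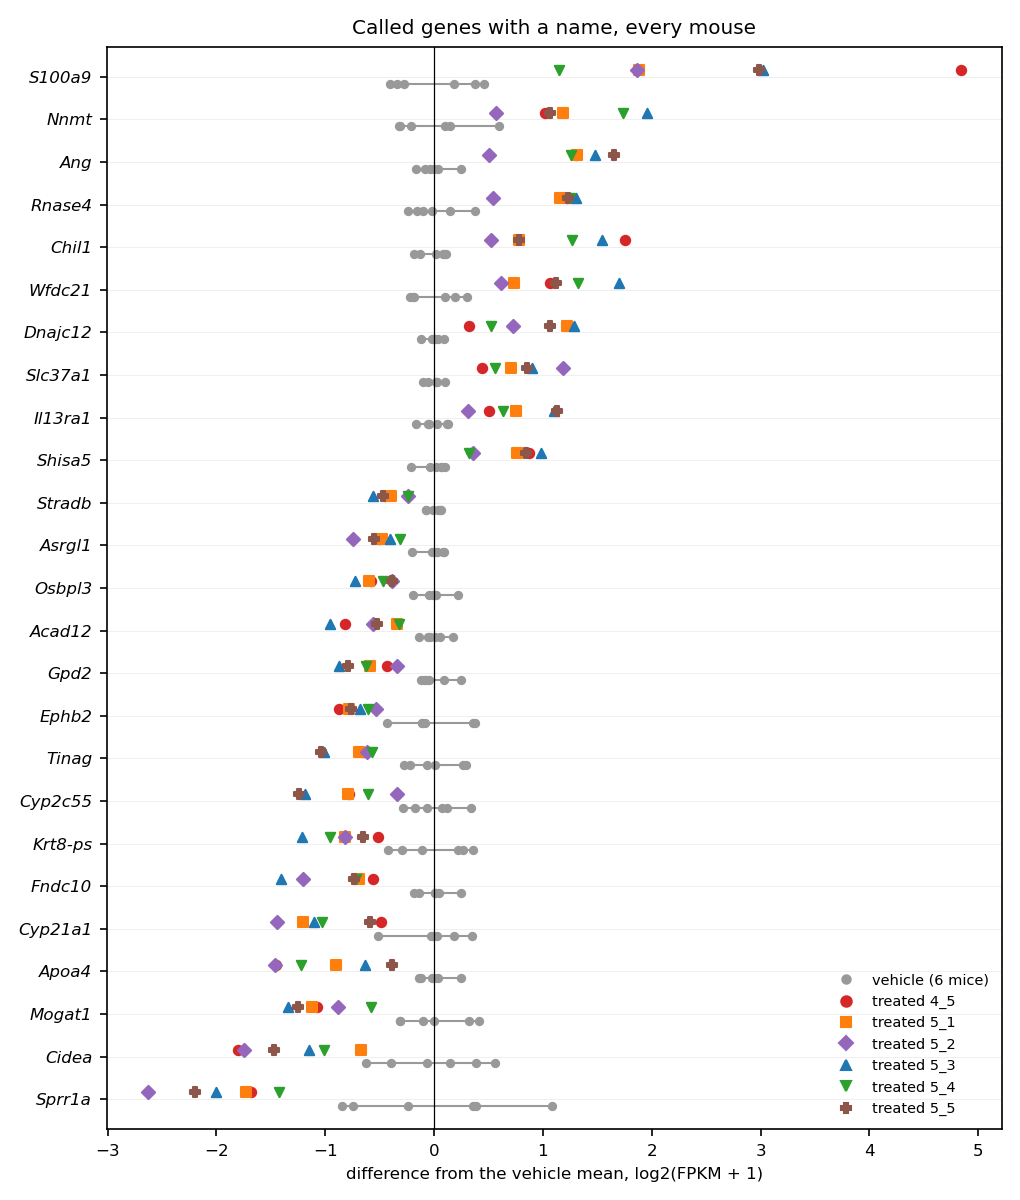
The 25 called genes with a name are shown by mouse, with the difference from the vehicle mean in log2(FPKM + 1) on the x axis; grey points joined by a line are the 6 vehicle livers and coloured symbols the 6 treated livers. All treated symbols lie outside the vehicle line for 23 of the 25 genes, the exceptions being Nnmt, with 5 of 6 above it, and Cyp21a1, with 5 of 6 below it.

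Positive acute phase proteins had higher values in 5 of the 6 treated livers, and none of them was called. Of 28 tested positive acute phase genes, 25 had higher mean values in treated livers, with a median difference of 0.94, and 24 had an unadjusted p under 0.05. The mean difference of the list from the vehicle mean was −0.17 to 0.16 among vehicle livers, −0.23 in treated 5_2 and 0.86, 0.90, 1.18, 1.88 and 1.93 in 5_1, 5_4, 4_5, 5_3 and 5_5. Mouse 5_2 thus lay below the vehicle range while the other 5 lay above it. Of 14 tested negative acute phase plasma proteins, 8 had higher and 6 lower values, with a median difference of 0.03. The mean difference of that list ran from −0.12 in 5_2 to 0.53 in 5_3, against −0.06 to 0.05 in vehicle livers.

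Serum amyloid A, encoded by Saa1 and Saa2, is a lipoprotein-bound protein whose plasma level rises steeply in inflammation. Saa1 was at 52, 84.5 and 104 FPKM in vehicle and at 44.1 FPKM in 5_2, 459.96 in 5_1, 759 in 5_4, 964 in 4_5, 1898 in 5_3 and 2900.4 in 5_5. Saa2 had 28.5, 50.5 and 60.4 FPKM in vehicle and 26.2, 541 and 2529 FPKM in treated livers with the mice in the same order. Their differences were 3.02 (SE 0.76) and 3.16 (SE 0.80), with a limma adjusted p of 0.135 for both. Without 5_2 they were 3.79 and 3.95, with limma adjusted p of 0.00143 and 0.0023. Neither passed in any of the other 11 fits that left out 1 library, where the differences went down to 2.59 and 2.64 and the limma adjusted p up to 0.276 and 0.27. Reads from such similar neighbouring genes can be divided between them in ways the deposited values do not show.

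The orosomucoids, plasma carriers of drugs and lipids, had the same pattern. Orm1 had 1036, 1168 and 1239 FPKM in vehicle and 1118, 3563 and 6753 FPKM in treated livers, and Orm2 had 105, 136 and 162 FPKM in vehicle and 101, 1114 and 1914 FPKM in treated livers. Their differences were 1.48 (SE 0.36, limma adjusted p = 0.129) and 2.45 (SE 0.60, limma adjusted p = 0.129); both passed without 5_2 (limma adjusted p = 0.012 and 0.00391) and in none of the other 11 fits (limma adjusted p up to 0.258 and 0.257). Haptoglobin (Hp), which binds free haemoglobin, had 3427, 3615 and 4206 FPKM in vehicle and 2935, 7873 and 12021 FPKM in treated livers. Lipocalin-2 (Lcn2), which withholds iron from bacteria, had 64, 75.1 and 116 FPKM in vehicle and 40.3, 518 and 1377 FPKM in treated livers. In all 4 of these genes the lowest treated value was that of 5_2, and the other 5 treated livers lay above the vehicle range.

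Fgl1, a fibrinogen-like protein secreted by hepatocytes, was the acute phase gene nearest to the threshold. It had 49.5, 66.2 and 81.4 FPKM in vehicle and 81.8, 215 and 511 FPKM in treated livers, with a difference of 1.82 (SE 0.35, limma adjusted p = 0.0573). All 6 treated livers lay above the vehicle range, 5_2 by the narrowest margin (81.8 against 81.4 FPKM). Hepcidin (Hamp), the hormone that lowers iron export and that inflammation is known to induce, had values in the other direction, 423, 682 and 1260.0 FPKM in vehicle and 111, 445 and 732 FPKM in treated livers, with a difference of −1.11 (limma adjusted p = 0.351).

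**Figure D3:**
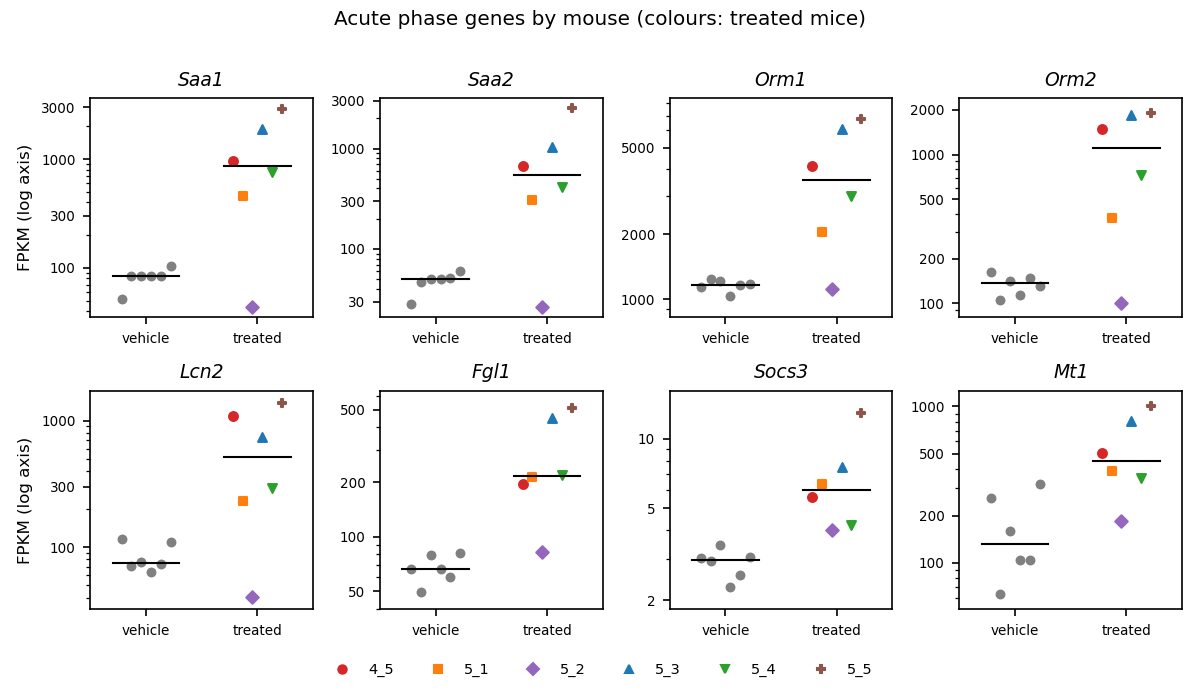
FPKM on a log axis is shown for 8 genes in each of 6 vehicle livers (grey) and 6 treated livers (coloured by mouse), with the median as a bar. For Saa1, Saa2, Orm2 and Lcn2, mouse 5_2 lies below every vehicle liver, and for all 8 genes the other 5 treated livers lie above every vehicle liver. The 8 genes were picked with their values known, and Hamp, which is not shown, had values in the other direction.

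Interleukin-6 family signalling genes had higher values in most members, and none was called. Of 19 tested members 18 had higher values, with a median difference of 0.26, and 5 had an unadjusted p under 0.05. In contrast to the acute phase proteins, the mean difference of this list lay above the vehicle range (−0.06 to 0.05) in all 6 treated livers, from 0.16 in 5_2 to 0.34 in 5_3. Socs3, the feedback inhibitor that STAT3 induces, had 2.28, 3.0 and 3.47 FPKM in vehicle and 4.03, 5.97 and 12.9 FPKM in treated livers without overlap, a difference of 0.91 (SE 0.20, limma adjusted p = 0.107). Stat3 itself had 9.23, 10.2 and 11.9 FPKM in vehicle and 11, 14.3 and 16.2 FPKM in treated livers, with only 4_5 inside the vehicle range (limma adjusted p = 0.131). Cebpd, a C/EBP factor of the acute phase, had 3.09, 3.88 and 4.58 FPKM in vehicle and 4.97, 5.34 and 10.9 FPKM in treated livers without overlap and was highest in 4_5. Il1r1, the interleukin-1 receptor, had medians of 5.37 FPKM in vehicle and 7.26 FPKM in treated livers, with 5 of 6 treated livers above the vehicle range. The leptin receptor Lepr, of the same receptor family as that for interleukin-6, had medians of 1.03 FPKM in vehicle and 1.3 FPKM in treated livers with overlap.

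Complement and coagulation factors, most of them secreted by hepatocytes, had mostly higher values and no called gene. For complement, 22 of 24 tested members were higher with a median of 0.38, and for coagulation 20 of 23 with a median of 0.19. Mouse 5_2 lay at −0.08 for complement and −0.00 for coagulation, within the vehicle ranges, and 5_3 was the highest at 0.76 and 0.71. C1ra, a protease of the first complement component, had 43.8, 48.1 and 53.3 FPKM in vehicle and 53.8, 71.1 and 77.8 FPKM in treated livers, without overlap. In C8b of the membrane attack complex (1.12) and in the C1 inhibitor Serping1 (0.79), 5 of 6 treated livers lay above the vehicle range, and 5_2 was the exception in both. The 3 fibrinogen chains that form the clot had differences of 0.77 (Fga), 0.76 (Fgb) and 0.78 (Fgg), and Fga and Fgb did not overlap between the groups. Serpinf2, the inhibitor of plasmin, had a difference of 0.56. The limma adjusted p of these 7 genes ranged from 0.116 for C1ra to 0.189 for Fgg.

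The mean difference of the 7 tested neutrophil markers was −0.16 to 0.22 in vehicle livers. It was higher in every treated liver, from 0.61 in 5_2 to 3.48 in 4_5. This mean includes Camp, which passed the filter only in the treated group, so it supports nothing by itself. S100a9, a subunit of calprotectin, rose from 5.5, 7.45 and 10.8 FPKM in vehicle to 18, 49.1 and 246 FPKM in treated livers (log2 fold change 2.62, SE 0.49, limma adjusted p = 0.0449). Mouse 4_5 had 246 FPKM and the next mouse 68.9 FPKM, and even the lowest treated liver, 5_4, lay above the vehicle range. S100a8, the other subunit, had 4.45, 5.2 and 6.93 FPKM in vehicle and 8.91, 26.7 and 158 FPKM in treated livers without overlap but was not called (limma adjusted p = 0.116). Camp, the cathelicidin of neutrophil granules, had 0, 0.245 and 0.393 FPKM in vehicle and 1.03, 3.75 and 16.1 FPKM in treated livers. Retnlg, a resistin-like protein of neutrophils, had 0.489, 1.05 and 1.78 FPKM in vehicle and 1.58, 4.47 and 25.8 FPKM in treated livers. In both, 4_5 was again the highest.

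Of the 15 neutrophil markers 7 were tested, all 7 had higher values, and 1 was called. Camp passed the filter only in the treated group, so its place among the tested genes is not independent of its difference. The same limit applies to the mean difference of the list, which includes Camp, and the mean without it is not given here. Lcn2 is a marker in this list and an acute phase gene of hepatocytes as well, and it was below every vehicle liver in 5_2 and highest in 5_5. Retnlg lay within the vehicle range in 5_2. The summed level of all 15 markers was 85.3 to 136.4 FPKM in vehicle and 101.6 to 1587.5 FPKM in treated livers, and without Lcn2 it was 14.9 to 22.5 and 37.2 to 502.2 FPKM, which do not overlap. Ngp, Camp, Ltf, Mpo, Elane and Ly6g were listed at 0 in at least 1 liver. The part of neutrophil content in the other results was not tested.

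Among markers of other immune cells, those of Kupffer cells and of B and plasma cells were higher in part of the treated mice, and none was called. All 12 Kupffer cell markers had higher values, with a median difference of 0.29, but their mean difference was 1.61 in 4_5 and −0.04 to 0.29 in the other treated livers, near the vehicle range of −0.22 to 0.22. C1qa, a complement subunit made by these macrophages, had 121, 146 and 169 FPKM in vehicle and 128, 183 and 426 FPKM in treated livers, and C1qb, its partner, had medians of 169.6 FPKM in vehicle and 208 FPKM in treated livers with 4_5 highest and 5_2 lowest in both. Cd5l, a protein that Kupffer cells secrete, had 695 FPKM in 4_5 and at most 274 FPKM in the other treated livers. Folr2, a folate receptor of resident macrophages, had medians of 2.61 FPKM in vehicle and 3.73 FPKM in treated livers. Exons of Folr2 overlap an opposite-strand gene over 63.1% of their length, and whether strand was used in counting is not given. Antibody genes were higher in 4 of the 6 treated livers: Igkc, the kappa light chain, had 12.1, 28.9 and 32.7 FPKM in vehicle and 14.8, 83.7 and 122 FPKM in treated livers. Igha, of the IgA heavy chain, had medians of 2.18 FPKM in vehicle and 8.2 FPKM in treated livers. Jchain, which links IgA, and the B cell receptor subunit Cd79b also had 4 of 6 treated livers above the vehicle range. Their list, with 6 of 10 markers tested and a median of 0.87, lay at −0.41 in 5_2 and 0.12 in 5_4 and at 0.76 to 1.62 in the other 4. Markers of lipid-associated and recruited macrophages had lower values in 7 of 10 tested (median −0.21), with mean differences of −0.57 in 5_2 and −0.51 in 5_4 and 0.06 to 0.38 in the other 4, against −0.18 to 0.13 in vehicle livers. Of 12 T and NK cell markers 3 were tested, with a median of 0.06. Red cell transcripts, a sign of blood left in the tissue, had a median difference of 0.68 with mean differences of −0.91 to 1.06 in vehicle and −0.74 to 1.55 in treated livers, and their part in the immune transcripts was not tested.

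Outside these groups, 5 named genes rose. Nnmt, which methylates nicotinamide with S-adenosylmethionine and is abundant in fatty liver, had 34.4, 41.8 and 65.9 FPKM in vehicle and 64.5, 95.5 and 171 FPKM in treated livers (log2 fold change 1.25, SE 0.23, limma adjusted p = 0.0426). It lies on chromosome 9, 48591877 to 48605153 in GRCm38, the build in the submitters' processing notes and of all coordinates given here. Treated 5_2 (64.5 FPKM) lay just under the highest vehicle liver, 2_1 (65.9 FPKM). It was the only called gene of 21 tested in nicotinamide and NAD metabolism, where the median was −0.07. The others with the smallest p there were Aox1, an aldehyde oxidase (−0.54), Bst1, an enzyme that cleaves NAD (0.40), and Nudt12, a hydrolase of NADH (−0.28), with limma adjusted p of 0.145, 0.152 and 0.228.

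Slc37a1, a phosphate-linked glucose 6-phosphate exchanger of the endoplasmic reticulum, had 0.521, 0.652 and 0.755 FPKM in vehicle and 1.21, 1.81 and 2.72 FPKM in treated livers (chromosome 17, 31295483 to 31350696). These values rest on 35 to 46 reads in vehicle and 83 to 185 in treated livers. Its log2 fold change was 0.77 (SE 0.11, limma adjusted p = 0.0228), and 5_2, the lowest treated mouse for Ang and Rnase4, had the highest value here. No vehicle liver reached 1 FPKM, so it was tested only because of the treated group, as were 3 genes in all, and it could not be tested in the fits that left out a treated library.

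Shisa5, a membrane protein of the endoplasmic reticulum induced by p53, rose from 12.3, 14.8 and 15.5 to 18.2, 25.9 and 29.3 FPKM (chromosome 9, 109038565 to 109057777, log2 fold change 0.69, SE 0.12, limma adjusted p = 0.0379). Il13ra1, a receptor subunit for interleukin-13 and interleukin-4, rose from 9.97, 11.3 and 12.4 to 14.4, 19 and 25.9 FPKM (chromosome X, 36112110 to 36171259, log2 fold change 0.74, SE 0.13, limma adjusted p = 0.0419). Dnajc12, a co-chaperone of the aromatic amino acid hydroxylases, rose from 1.83, 2.09 and 2.29 to 2.83, 4.77 and 6.5 FPKM (chromosome 10, 63382443 to 63410576, log2 fold change 0.86, SE 0.15, limma adjusted p = 0.0419). In all 3 genes the treated and vehicle livers did not overlap. The remaining gene called higher is a gene model without a name.

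The list of endoplasmic reticulum chaperones had 22 tested members, of which 20 had higher values with a median of 0.22. Its only called member was Dnajc12, which is counted in the list although its known partners are the hydroxylases named above. The integrated stress response restrains translation under amino acid or protein-folding stress. The chaperone list and the stress response list were highest in the same mice, 5_3 (0.61 and 0.84) and 5_5 (0.76 and 0.57). These mice also had the highest acute phase values. Both lists lay within the vehicle range in 5_2 and 5_4. In 4_5 and 5_1 the chaperone list (0.03 and 0.11) lay within its range of −0.20 to 0.17. There the stress response list (0.23 and 0.21) lay above its range of −0.20 to 0.13. Sdf2l1, a chaperone cofactor, had 8.8, 13.9 and 15.7 FPKM in vehicle and 15.2, 22.5 and 46.1 FPKM in treated livers. The chaperone Dnajb11 and Edem1, which marks misfolded glycoproteins for disposal, had differences of 0.29 and 0.15, with 2 and 4 treated livers above the vehicle range. In the stress response list 17 of 22 tested members had higher values and none was called. Asparagine synthetase (Asns) had 0.533, 0.83 and 1.47 FPKM in vehicle and 1.21, 2.93 and 8.14 FPKM in treated livers, with the 2 highest values in 5_3 (8.14) and 5_5 (7.43), and Chac1, which degrades glutathione, had its highest values in the same mice. Aldh18a1, of proline synthesis, and the stress protein Nupr1 had differences of 0.32 and 0.56 (limma adjusted p = 0.314 and 0.327). The hormone Fgf21, known to rise in liver stress, had 16.8, 19.9 and 39.3 FPKM in vehicle and 12.9, 27.4 and 103 FPKM in treated livers, and the stress cytokine Gdf15 had 7.68, 9.84 and 13.1 FPKM in vehicle and 3.02, 8.6 and 15.6 FPKM in treated livers. Both overlapped, and 5_3 was the highest treated liver in both.

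**Figure D4:**
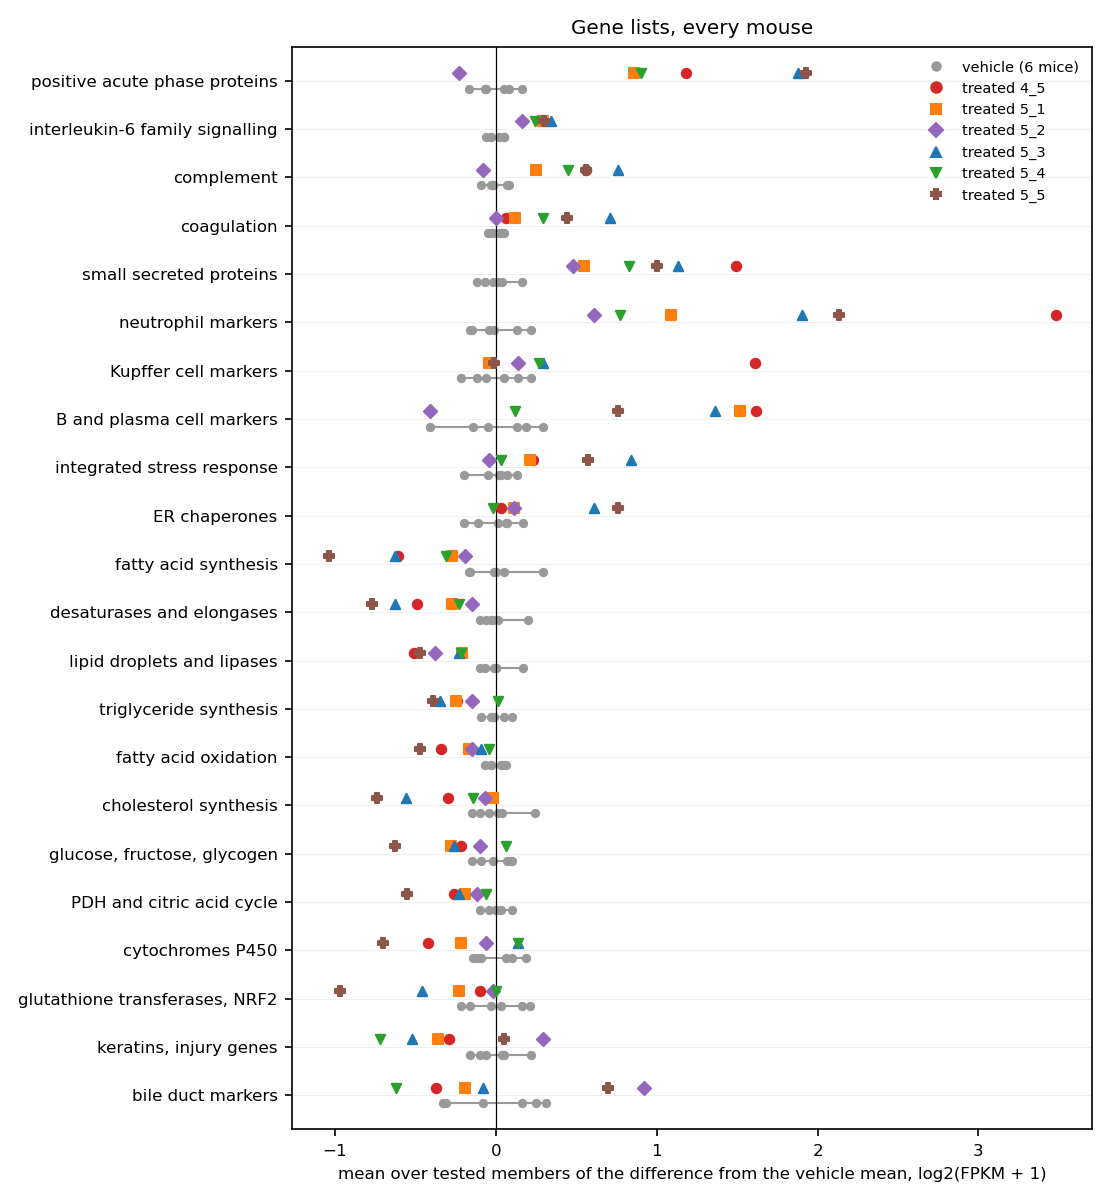
For 22 gene lists, the mean over tested members of the difference from the vehicle mean, log2(FPKM + 1), is shown for each mouse, with grey points and a line for the 6 vehicle livers and coloured symbols for the 6 treated livers. Treated 5_2 lies at −0.23 for acute phase proteins while the other 5 lie between 0.86 and 1.93, and 4_5 stands alone at 1.61 for Kupffer cell markers.

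The genes that fell included 4 with roles in lipid metabolism: Mogat1 of triglyceride synthesis, Cidea of lipid droplets, Apoa4 of the apolipoproteins and Gpd2, grouped with them here by its known role. Mogat1, which makes diacylglycerol from monoacylglycerol and is induced in fatty liver, had 7.51, 9.23 and 13.1 FPKM in vehicle and 3.17, 3.96 and 6.11 FPKM in treated livers and fell by 1.04 on the log2 scale (SE 0.15, limma adjusted p = 0.0234, chromosome 1, 78510991 to 78538173). Cidea, which fuses lipid droplets into larger ones and is scarce in lean liver, had 39.3, 63 and 90.4 FPKM in vehicle and 16.8, 24.2 and 38.1 FPKM in treated livers and fell by 1.31 (SE 0.23, limma adjusted p = 0.0419). Apoa4, an apolipoprotein that fatty liver secretes with triglyceride, had 1804, 1979 and 2357 FPKM in vehicle and 723, 958 and 1519 FPKM in treated livers and fell by 1.01 (SE 0.18, limma adjusted p = 0.0426). Gpd2, the mitochondrial glycerol 3-phosphate dehydrogenase, had 9.42, 9.84 and 12.4 FPKM in vehicle and 5.16, 6.43 and 7.91 FPKM in treated livers and fell by 0.61 (SE 0.10, limma adjusted p = 0.0273, chromosome 2, 57237635 to 57370719). In all 4 genes every treated liver lay below every vehicle liver, 5_2 included, and for Cidea and Apoa4 mice 5_2 and 4_5 had the 2 lowest values. Exons of Apoa4 overlap opposite-strand gene models over 69.8% of their length, and reads of the strands cannot be told apart without strand in the counting.

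The lists around these genes had mostly lower values, with few calls. Of 19 tested lipid droplet proteins and lipases 16 were lower (median −0.27), 3 lay wholly below the vehicle range and Cidea was called. Over all tested genes 5610 of 10995 were lower, 0.728% lay wholly below and 0.155% were called lower. The mean difference of the list was −0.51 to −0.21 in treated and −0.10 to 0.17 in vehicle livers, which did not overlap. Perilipin 2 (Plin2), the main coat protein of hepatic droplets, had 281, 332 and 436 FPKM in vehicle and 166, 221 and 253 FPKM in treated livers without overlap, a difference of −0.67 (SE 0.14, limma adjusted p = 0.0902). Cidec, the other CIDE protein of fatty liver, had 135, 151 and 203 FPKM in vehicle and 72.8, 83.8 and 146 FPKM in treated livers, and Hsd17b13, a droplet enzyme, had medians of 346 FPKM in vehicle and 210.4 FPKM in treated livers. In each, 5 of 6 treated livers lay below the vehicle range, and 4_5 and 5_2 were the lowest, as for Cidea.

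For triglyceride synthesis 11 of 16 were lower (median −0.08) and Mogat1 was called. Gpam, which adds the first fatty acid to glycerol phosphate, had medians of 66.1 FPKM in vehicle and 42.1 FPKM in treated livers, and the phosphatase Lpin1 of 12.6 FPKM in vehicle and 6.71 FPKM in treated livers, each with 3 treated livers below the vehicle range. Mttp, which loads triglyceride onto lipoproteins, had 49.99, 54.1 and 61.5 FPKM in vehicle and 41.1, 42.5 and 48.4 FPKM in treated livers without overlap (limma adjusted p = 0.121). Among 17 apolipoproteins and assembly factors 9 were higher and 8 lower, and Apoa4 was called. Apoc3, an inhibitor of lipoprotein lipase, had 1543, 1818 and 2206 FPKM in vehicle and 1094, 1443 and 1455 FPKM in treated livers without overlap, and Apon had a difference of 0.44 with 5 treated livers above and 5_2 below the vehicle range. The fatty acid transporter Cd36 had 109, 115 and 149 FPKM in vehicle and 82.4, 93.5 and 112 FPKM in treated livers. The nuclear receptor Pparg, which promotes fat storage, had 9.93, 10.7 and 16.6 FPKM in vehicle and 7.45, 9.98 and 13 FPKM in treated livers. The groups overlapped in both.

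Fatty acid synthesis had lower values without a called gene. Of 21 tested lipogenic genes 19 were lower, with a median of −0.43, and 11 had an unadjusted p under 0.05. The mean difference was −0.19 in 5_2, −0.27 in 5_1, −0.31 in 5_4, −0.61 in 4_5, −0.63 in 5_3 and −1.04 in 5_5, against −0.17 to 0.29 in vehicle livers. Fatty acid synthase (Fasn) was at 89.3, 113 and 212 FPKM in vehicle and 28.9, 68.6 and 88.2 FPKM in treated livers without overlap, with a difference of −1.03 (SE 0.27, limma adjusted p = 0.146). Vehicle 3_2 had the highest Fasn and treated 5_5 the lowest. Acacb, an acetyl-CoA carboxylase, had medians of 19.8 FPKM in vehicle and 12.5 FPKM in treated livers. The glycolytic enzyme Pklr had medians of 139 FPKM in vehicle and 77.3 FPKM in treated livers, and Aacs, which activates acetoacetate for lipid synthesis, of 23.4 FPKM in vehicle and 11.3 FPKM in treated livers. In these 3 genes 5 of 6 treated livers lay below the vehicle range and 5_5 was the lowest. Srebf1, the factor that drives these genes, had 58.9, 75.1 and 111 FPKM in vehicle and 43.8, 90.7 and 106 FPKM in treated livers and a difference of −0.01, whose sign changed with array weights and without any of several single libraries.

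Desaturases and elongases, which shape fatty acids after synthesis, were lower in 14 of 16 (median −0.43), with 3 genes wholly below the vehicle range. Over all tested genes 5610 of 10995 were lower and 0.728% lay wholly below. Hsd17b12, an enzyme of the elongation cycle, had 95, 104 and 114 FPKM in vehicle and 73.4, 81.1 and 86.4 FPKM in treated livers (limma adjusted p = 0.0715). Hacd2 of the same cycle had medians of 21.2 FPKM in vehicle and 15.2 FPKM in treated livers, and the elongase Elovl7 of 1.88 FPKM in vehicle and 1.2 FPKM in treated livers. The groups did not overlap in any of these 3. The desaturase Fads2 had 658, 712 and 847 FPKM in vehicle and 269.6, 423 and 759 FPKM in treated livers, with only 5_4 inside the vehicle range. Scd1, which makes oleate and is the most abundant of these genes named here, had 7841, 8723 and 12429 FPKM in vehicle and 2438, 6164 and 9759 FPKM in treated livers with overlap and a difference of −0.83 (SE 0.33, limma adjusted p = 0.307).

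**Figure D5:**
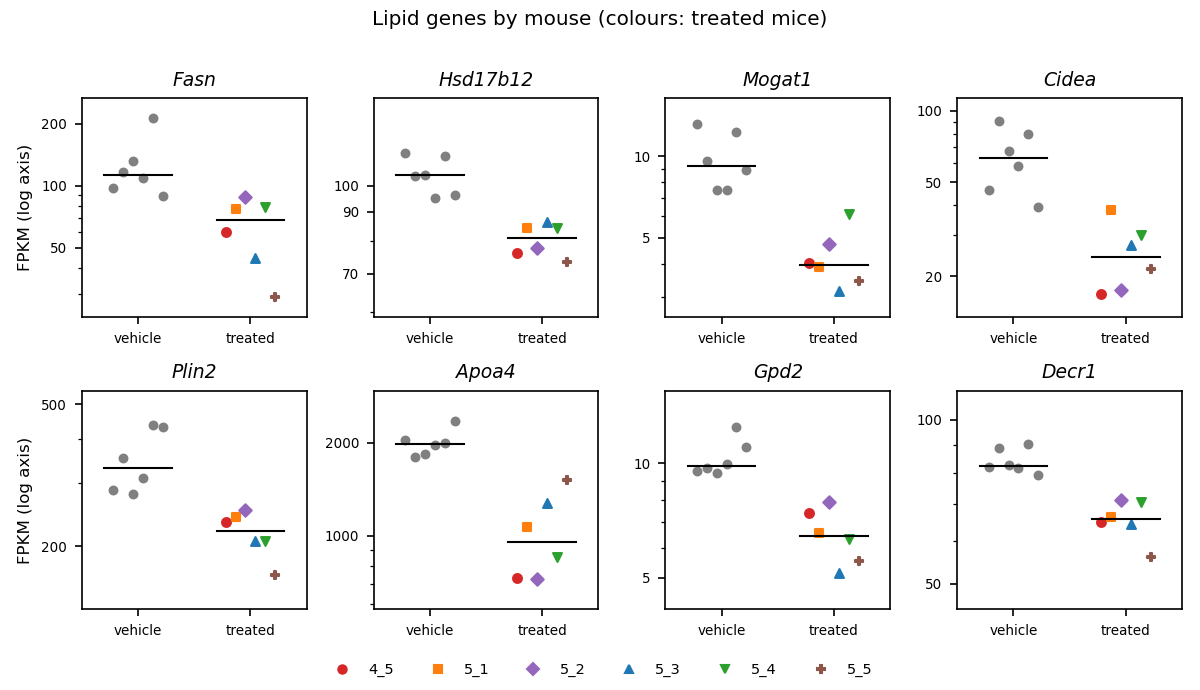
FPKM on a log axis is shown for 8 lipid genes in 6 vehicle livers (grey) and 6 treated livers (coloured by mouse), with the median as a bar. In each of the 8 genes all treated livers lie below all vehicle livers. Mogat1, Cidea, Apoa4 and Gpd2 were called, while Fasn, Hsd17b12, Plin2 and Decr1 were not. The 8 were picked with their values known, so their separation supports nothing by itself. Some other lipid genes named in the text, among them Scd1, Cidec, Fads2, Cd36 and Pparg, overlap between the groups.

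Genes of fatty acid oxidation and the citric acid cycle had small differences in one direction. For fatty acid activation and oxidation 27 of 28 tested members were lower with a median of −0.22, and for pyruvate dehydrogenase and the citric acid cycle 30 of 30 with a median of −0.22; no gene of either list was called. Decr1, which handles unsaturated fatty acids in mitochondria, had 79.3, 82.3 and 90.4 FPKM in vehicle and 56.1, 65.6 and 71.2 FPKM in treated livers without overlap, a difference of −0.36 (SE 0.07, limma adjusted p = 0.0856). Acsl5, which activates fatty acids, had 105, 109.9 and 155 FPKM in vehicle and 53.1, 84.7 and 99.99 FPKM in treated livers, and Hsd17b4, of peroxisomal oxidation, had medians of 209.5 FPKM in vehicle and 174 FPKM in treated livers, also without overlap. Among the citric acid list members with the smallest p were Pdha1, a pyruvate dehydrogenase subunit (−0.39), Dlat, another subunit (−0.57), and Ogdh of the 2-oxoglutarate step (−0.27), with limma adjusted p from 0.141 to 0.179. The share of reads from mitochondrial genes, given above, had a lower median in treated livers too, and their part in these differences was not tested. Treated 5_5 was lowest in both lists (−0.47 and −0.55) and 5_4 nearest to vehicle (−0.04 and −0.06).

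The enzymes the drugs act on were examined by name. Acaa2, the mitochondrial thiolase, had 555, 609 and 721 FPKM in vehicle and 455, 593 and 643 FPKM in treated livers (limma adjusted p = 0.627). Hadha, the larger subunit of the trifunctional protein, had 53, 55.2 and 63.2 FPKM in vehicle and 42.9, 47.9 and 52.8 FPKM in treated livers without overlap (limma adjusted p = 0.219). Hadhb, the subunit with thiolase activity, had 35.5, 37.6 and 42.6 FPKM in vehicle and 30.04, 32.5 and 36.4 FPKM in treated livers, with 4 of 6 treated livers below the vehicle range (limma adjusted p = 0.237). The thiolases Acat1 of ketone metabolism and Acat2 of sterol synthesis had differences of −0.18 and −0.36, so that 7 of 8 thiolase-related genes were lower and none was called. The cyclooxygenase Ptgs1 had 4.23, 4.91 and 6.72 FPKM in vehicle and 5.17, 6.75 and 16.1 FPKM in treated livers, with the highest value in 4_5, and Ptgs2 stayed between 0.02 and 0.11 FPKM in all 12 livers and was not tested. Among 12 tested prostaglandin and leukotriene genes 7 were higher and 5 lower. Alox5ap, the activating protein of leukotriene synthesis in myeloid cells, had 1.55, 2.12 and 2.44 FPKM in vehicle and 2.89, 3.8 and 7.0 FPKM in treated livers without overlap (limma adjusted p = 0.107). Prostacyclin synthase Ptgis had medians of 3.17 FPKM in vehicle and 5.46 FPKM in treated livers, with 5 of 6 treated livers above the vehicle range. The phospholipase Pla2g6 and the prostaglandin reductase Ptgr2 had differences of −0.46 and −0.28.

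Sugar and sterol metabolism had lower values in most members. Of 29 tested glucose, fructose and glycogen genes 23 were lower (median −0.31), and the 1 called gene was Slc37a1, which rose. The glucose transporter Slc2a2 had medians of 63.4 FPKM in vehicle and 43.2 FPKM in treated livers, and Ugp2, which makes UDP-glucose for glycogen, of 206 FPKM in vehicle and 117 FPKM in treated livers. In both the 2 lowest livers were 5_5 and 5_3. For cholesterol synthesis 21 of 23 were lower (median −0.30). The mean differences were −0.74 in 5_5, −0.56 in 5_3 and −0.30 in 4_5, below the vehicle range of −0.15 to 0.24. Within it were 5_1 (−0.02), 5_2 (−0.07) and 5_4 (−0.14). The 4 with the smallest p were Dhcr7 (−0.55), Sc5d (−0.49), Cyp51 (−0.49) and Hsd17b7 (−0.45), all of late sterol synthesis, and none was called (limma adjusted p from 0.123 to 0.245). Cyp7a1, the rate-limiting enzyme of bile acid synthesis, had 18.5, 33.2 and 59.9 FPKM in vehicle and 35, 45 and 73.8 FPKM in treated livers. The growth factor Igf1 had 23.1, 31.4 and 38.3 FPKM in vehicle and 16.2, 36.4 and 53.8 FPKM in treated livers. Both overlapped between the groups.

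Detoxifying enzymes varied widely between the treated mice. Of 38 tested drug and steroid cytochromes P450, 24 were lower and 13 higher, and 2 fell. Cyp2c55, a fatty acid and drug hydroxylase, had 3.74, 4.78 and 6.32 FPKM in vehicle and 1.45, 2.35 and 3.55 FPKM in treated livers without overlap (log2 fold change −0.83, SE 0.15, limma adjusted p = 0.0441). Cyp21a1, the steroid 21-hydroxylase, had 1.29, 2.28 and 3.16 FPKM in vehicle and 0.199, 0.558 and 1.33 FPKM in treated livers, with 8 to 54 reads in treated livers, and 4_5 lay within the vehicle range (log2 fold change −0.98, SE 0.17, limma adjusted p = 0.0419). Cyp2a22 and Cyp2f2 had differences of −0.78 and −1.15 without overlap and were not called. The mean difference of the list was −0.70 in 5_5, −0.42 in 4_5 and −0.22 in 5_1, below the vehicle range of −0.14 to 0.19, and −0.06 in 5_2, 0.14 in 5_3 and 0.14 in 5_4, within it. Reads of these large families can be divided between close relatives. Among 29 tested glutathione transferases and NRF2 targets 23 were lower (median −0.27) and none was called. Their mean difference was −0.97 in 5_5, −0.46 in 5_3 and −0.23 in 5_1, below the vehicle range of −0.22 to 0.21. Within it were 4_5 (−0.10), 5_2 (−0.02) and 5_4 (0.00). Gsta1 had 31.6, 47.5 and 83.8 FPKM in vehicle and 3.13, 26.5 and 35.4 FPKM in treated livers, with 3.13 FPKM in 5_5. Gstt1, the epoxide hydrolase Ephx1 and Nfe2l2, which encodes NRF2, had differences of −0.56, −0.50 and −0.25.

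Metallothioneins and iron genes gave no called gene in 19 tested. Metallothionein Mt1, which binds zinc and is part of the acute phase, had 63.1, 133 and 322 FPKM in vehicle and 186, 446 and 1009 FPKM in treated livers (difference 1.68, SE 0.45, limma adjusted p = 0.146), and Mt2 had medians of 0.907 FPKM in vehicle and 3.27 FPKM in treated livers. Exons of Mt2 overlap an opposite-strand gene model over 73.5% of their length. Hfe2, the hemojuvelin coreceptor that raises hepcidin, had 57.1, 62.5 and 68.4 FPKM in vehicle and 43.5, 50.9 and 56.8 FPKM in treated livers, wholly below the vehicle range. The iron importer Slc11a2 had medians of 7.03 FPKM in vehicle and 8.81 FPKM in treated livers, with 5 of 6 treated livers above the vehicle range.

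The largest fold change among the genes that fell belonged to Sprr1a, a small proline-rich protein of the cornified envelope that injured epithelial cells express. Sprr1a had 12.3, 24.3 and 49.5 FPKM in vehicle and 2.84, 5.55 and 7.88 FPKM in treated livers (chromosome 3, 92483952 to 92485895, log2 fold change −1.95, SE 0.31, limma adjusted p = 0.0254). All treated livers lay below all vehicle livers, and 5_2 was the lowest at 2.84 FPKM. Of 14 tested keratins and epithelial injury genes 10 were lower and Sprr1a was called. Keratin 8 (Krt8), which hepatocytes express and raise in injury, had 296, 369.7 and 439 FPKM in vehicle and 243, 249 and 316 FPKM in treated livers, with 5 of 6 treated livers below the vehicle range (limma adjusted p = 0.121). Its processed pseudogene Krt8-ps was among the genes that fell, with 2.74, 4.25 and 5.43 FPKM in vehicle and 1.17, 1.85 and 2.52 FPKM in treated livers; a processed pseudogene resembles its parent, so these reads may belong to Krt8. Anxa5, a phospholipid-binding protein, and Krt23 had differences of −0.71 and −0.63.

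Bile duct markers set 5_2 apart. Krt19, which marks bile duct epithelium, was at 71.9 FPKM in 5_2 and at 3.34 to 6.9 FPKM in the other 11 livers. The adhesion protein Epcam was likewise highest in 5_2, at 14.9 FPKM. Spp1 (osteopontin), which bile ducts and macrophages express, was in contrast low in 5_2 (61.5 FPKM) and highest in 5_5 (730.4 FPKM), beside 114 to 287 FPKM in vehicle livers, and Krt7 had 0.583, 0.804 and 1.52 FPKM in vehicle and 1.0, 1.37 and 2.98 FPKM in treated livers. The 10 markers summed to 128.3 to 308.8 FPKM in vehicle and 70.2 to 754.6 FPKM in treated livers, with Anxa13 among those listed at 0 in at least 1 liver. The part of bile duct content in the values of 5_2 was not tested.

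The other named genes that fell came from several functions. Osbpl3, an oxysterol-binding protein relative, had 7.26, 8.41 and 9.94 FPKM in vehicle and 4.7, 5.56 and 6.22 FPKM in treated livers. Asrgl1, which hydrolyses asparagine and isoaspartyl peptides, had 7.15, 8.53 and 8.98 FPKM in vehicle and 4.58, 5.66 and 6.54 FPKM in treated livers. Tinag, a basement membrane protein, had 2.16, 2.75 and 3.7 FPKM in vehicle and 0.863, 1.4 and 1.57 FPKM in treated livers. In these 3 genes no treated liver reached the vehicle range, and a different mouse was the lowest in each (5_3, 5_2 and 5_5). Fndc10 had 5.63, 6.58 and 7.92 FPKM in vehicle and 1.82, 3.54 and 4.08 FPKM in treated livers. Stradb, a pseudokinase partner of the kinase LKB1, had 7.51, 8.06 and 8.39 FPKM in vehicle and 5.08, 5.7 and 6.62 FPKM in treated livers. The receptor tyrosine kinase Ephb2 had 1.69, 2.4 and 3.71 FPKM in vehicle and 0.985, 1.21 and 1.5 FPKM in treated livers. Again the groups did not overlap, and 5_3 was the lowest for Fndc10 and Stradb. Acad12, of the acyl-CoA dehydrogenase family, had 4.12, 4.57 and 5.34 FPKM in vehicle and 1.9, 2.86 and 3.5 FPKM in treated livers. Their log2 fold changes ran from −0.89 for Fndc10 to −0.39 for Stradb, with limma adjusted p between 0.0254 and 0.0441, and in none did the groups overlap. The other 2 genes called lower are gene models without a name, 1 of them annotated as antisense. Just past the threshold, and so not called, was Jun, an immediate early transcription factor, with 22.4, 25 and 27.4 FPKM in vehicle and 14.2, 17.4 and 21.1 FPKM in treated livers (limma adjusted p = 0.052). Next came Lpcat3, which puts polyunsaturated chains into phospholipids, with medians of 47.5 FPKM in vehicle and 34 FPKM in treated livers, and Mapre3, Palmd, Sulf2 and Pdzrn3, all 5 at a limma adjusted p of 0.055. These 6 were named after their values were seen.

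Across the called genes the treated mice did not keep 1 order. For the 11 genes called higher, 5_2 was the nearest to the vehicle mean in 7, and 5_3 was the farthest in 5. For the 17 genes called lower, 5_4 was the nearest in 7 and 5_3 the farthest in 9, while 5_2 was the farthest in 4. The median difference over the 17 lower genes was −0.82 in 5_2, within the −1.11 to −0.63 of the 6 treated livers, and over the 11 higher genes it was 0.57 in 5_2 against 1.02 to 1.48 in the other 5. These medians describe genes that were chosen for their difference and support nothing by themselves. Lists in which 5_5 had the lowest treated value included lipogenesis, cytochromes P450, the NRF2 list and the citric acid cycle, and 4_5 had the highest value for neutrophil and Kupffer cell markers.

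At 24 h after the drugs, 1 treated and 1 vehicle liver were measured, in a table normalized separately, so their values stand beside those at 40 d without a test. Of the 11 genes called higher at 40 d, 10 had a higher value in the treated liver at 24 h. Their log2 ratios ran from −0.02 to 1.45, with a median of 0.44. Nnmt was 20.5 FPKM in the vehicle and 57.8 FPKM in the treated liver, a log2 ratio of 1.45, and Slc37a1 and Dnajc12 had ratios of 0.78 and 0.76. Ang had a ratio of −0.02 and Rnase4 of 0.17. Of the 17 genes called lower at 40 d, 7 had a lower value at 24 h, with a median log2 ratio of 0.05. The share over all tested genes is not given beside either count, so the counts do not show agreement between the times. Cidea, which fell at 40 d, was 13.1 FPKM in the vehicle and 28.9 FPKM in the treated liver at 24 h, and Sprr1a was 1.61 FPKM in the vehicle and 4.14 FPKM in the treated liver. Hamp, lower on average at 40 d, was 167 and 897 FPKM. With 1 mouse per group these differences have no replicate check.

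Skeletal muscle of mice with the same label numbers was used only to ask whether a liver effect differed between the tissues. Of 9436 genes tested in both, the difference of effects passed for 1 (0.0106%), Rnase4, with a liver effect of 1.12, a muscle effect of −0.14 and a difference of 1.26 (limma adjusted p = 0.0112). For Ang the muscle effect was 0.07 and the difference 1.18 (limma adjusted p = 0.131), which did not pass in this fit. The fit took liver and muscle samples as independent. The result with the shared label number as a block is given with the dependence on the processing. S100a9 had a muscle effect of 1.91 beside 2.62 in liver (limma adjusted p of the difference = 0.997). Of the 28 genes called in liver 15 were tested in both tissues, and 13 did not pass the filter in muscle. The Rnase4 difference did not pass without mouse 5_3, 5_4 or 5_5, which left 0 genes in each case.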

How the data were processed

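Liver RNA of 6 vehicle and 6 treated mice was extracted with Trizol and made into libraries with the NEBNext Ultra kit, per the labels' protocols. The authors deposited FPKM values per gene, with gene lengths, for GRCm38 (mm10), per the submitters' processing notes. Which programs aligned and counted the reads, and whether strand was used, is not given in the sources used for this text. All FPKM values came out as whole reads when multiplied by gene length and divided by a step fitted to each library's smallest values. This gave the depth of 16.8 to 18.9 M reads per library. The library size implied by the step differed from the read total, as in 5_3 with 15.369 M against 16.77 M. Scaling by trimmed means moved the median gene of a library by only −0.015 to 0.014 on the log2 scale, so it is a weak check.

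Genes that reached 1 FPKM in 6 or more of the 12 libraries were kept, and log2(FPKM + 1) was compared with limma 3.58.1 (empirical Bayes with trend, R 4.3.3, Benjamini-Hochberg adjustment over all 10995 genes). The labels do not say that numbers are separate animals, so p-values measure the spread between these samples. The fit was tested on simulated data with the liver means and depths (10826 genes): 39 of 63 genes with a 1.5-fold change were called, 54 of 66 at 2-fold and 57 of 61 at 4-fold. There were 9 false calls, and 0 calls in data without any change. The simulation drew each gene independently, with 1 SD per gene for both groups. It left out the larger spread of the treated livers and differences that many genes share in 1 mouse. It therefore cannot show how many of the real calls are false. List scores are means over tested members of the difference from the vehicle mean. The tissue comparison is the interaction of treatment and tissue in 1 limma fit over liver and muscle.

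The genes, gene lists and comparisons were chosen with earlier results of these data known. Named were the called genes with a symbol, the 4 tested members with the smallest p of each described list, and a set of drug targets, acute phase, lipid and stress genes. Another pseudocount (0.1), other filters, scaling by trimmed means, no trend, array weights, voom on the recovered reads and leaving out libraries were tried. Samples of the single drugs were not analysed here, and a few list members that the rule names are not reported here.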

Additional observations from a re-analysis of the deposited data

Results flagged for a closer look

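Each group of 6 livers was checked for a highest or lowest value whose gap to its neighbour exceeded Dixon's limit of 0.625 of the range, over 141 genes and 27 gene lists. Of 336 groups 21 passed, and chance passes about 1 in 20, so a single value here is weak evidence of an unusual liver. Mouse 5_2 was the low extreme of the treated livers for Ang (84.4 FPKM) and Rnase4 (478 FPKM) and the high extreme for the bile duct genes Krt19 (71.9 FPKM) and Epcam (14.9 FPKM). Mouse 4_5 was the high extreme for the macrophage protein Cd5l (695 FPKM), the Kupffer cell list (1.61), the transcription factor Cebpd (10.9 FPKM) and the cyclooxygenase Ptgs1 (16.1 FPKM). Mouse 5_5 was the high extreme for Spp1 (730 FPKM) and the low one for Apoc3 (1094 FPKM). Mouse 5_3 was high for the ketone thiolase Acat1 (198 FPKM) and low for an unnamed antisense gene model called lower (0.16 FPKM).

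Among vehicle livers, 3_2 was high for Scd1 (12429 FPKM), Acsl5 (155 FPKM), Dlat (33.7 FPKM), Aox1 (16.2 FPKM) and the list of desaturases and elongases (0.20), and 2_3 was high for the lipid droplet list (0.17). The lowest vehicle values of Saa1 (52.0 FPKM) and Saa2 (28.5 FPKM), both in 2_1, and of Fgg (613 FPKM), in 2_5, also stood apart. The other result is the difference in effect between tissues for Rnase4, 1.26 higher in liver than in muscle on the log2 scale, which passed the limma test of the difference itself.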

How the results depend on the processing

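The genes called higher numbered 11 and those called lower 17. Pseudocount, FPKM minimum of 5, trimmed-mean scaling, no trend and voom gave 8 to 12 higher and 13 to 20 lower. Array weights gave 19 higher and 19 lower. With no filter on low values 0 were higher and 0 lower of 26705 genes tested, with 2310 at an unadjusted p under 0.05. Leaving out 1 library gave 0 to 48 higher and 0 to 35 lower: 0 and 0 without vehicle 2_3 or treated 5_3, 1 and 0 without vehicle 3_2, 2 and 0 without vehicle 2_1, 4 and 4 without vehicle 2_5, and the most without treated 5_2. Without treated 4_5 and 5_2 there were 98 higher and 46 lower, and without 4_5 and 5_5, an alternative chosen after seeing the data, 0 higher and 1 lower (1175 at an unadjusted p under 0.05). A count test on the recovered reads was planned and not run, because the deposited unit is FPKM.

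The sign of a few genes with small differences turned. Srebf1 was 0.07 with array weights, 0.26 without 4_5 and 5_2, 0.15 without 4_5 and 5_5, and −0.10 to 0.15 without 1 library. Krt19 was −0.09 without 4_5 and 5_2 and −0.15 to 0.67 without 1 library. Epcam was 0.00 without 4_5 and 5_5 and −0.57 to 0.07 without 1 library. Gdf15 was 0.14 without 4_5 and 5_2 and −0.36 to 0.04 without 1 library, and Fgf21 was −0.02 to 0.56. The cause was not tested.

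With the label number shared by liver and muscle as a replicate block, 3 genes differed between the tissues (Rnase4, Ang and Lrg1, the last named after its value was seen) in place of 1. Without the block, 0 to 2 genes did so when 1 mouse was left out. Deviations of same-numbered samples correlated at −0.078 to 0.447, and 7 of 12 correlated best with their own number, so the block is a hint from the data and not the design. Depth limits the low genes most, such as Slc37a1 and Cyp21a1.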
